A study of Mus musculus with 384 samples.

Results

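The genes of leukotriene and prostaglandin synthesis (7 of the 23420 genes in the table) were described in single cells from the spinal cords of Optn knockout mice. They are Alox5, Alox5ap, Lta4h, Ltc4s, Ptgs1, Ptgs2 and Ptges, chosen by name for their role in the pathway. Sorting used stains for CX3CR1, CD45 and CD11b, with 1 cell per well of 4 plates of 96 wells, and sequencing was by SmartSeq2, which reads whole transcripts and does not tag single molecules. Of 384 labelled cells, 326 have values and the other 58 were not analysed here. Every cell carries the Optn KO label (a knockout of optineurin, an autophagy receptor), the tissue label is spinal cord, and no treatment, age or strain is labelled, so there is no control to set the knockout against. Plates 1 and 2 form replicate 1 (154 cells) and plates 3 and 4 form replicate 2 (172 cells). Separate mice are not stated for the replicates, so the spread between them may be technical.

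Eicosanoids are short-lived lipid signals made from arachidonic acid. In the leukotriene branch, 5-lipoxygenase (Alox5), helped by its activating protein FLAP (Alox5ap), makes leukotriene A4, which leukotriene A4 hydrolase (Lta4h) turns into LTB4, a strong attractant for neutrophils, and LTC4 synthase (Ltc4s) turns into the cysteinyl leukotriene LTC4. In the prostaglandin branch, the cyclooxygenases COX-1 (Ptgs1, often constitutive) and COX-2 (Ptgs2, inducible) make prostaglandin H2, from which the microsomal synthase encoded by Ptges makes prostaglandin E2. Neutrophils are known for making LTB4, while mast cells, basophils and eosinophils are known for LTC4.

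The sorted cells are called microglia in the title of the series, but 0 of the 326 cells had 3 or more of 12 microglia markers above 0. Neutrophils were taken as the cells with at least 10000 TPM of S100a8 plus S100a9, a pair of calcium-binding proteins that fill the neutrophil cytosol. TPM is the transcript abundance per length, scaled to 1000000 per cell. This rule gave 286 neutrophils (131 in replicate 1 and 155 in replicate 2) and 40 other cells (23 and 17). The highest other cell had 4019 TPM and the lowest neutrophil 12512 TPM. Of the neutrophils, 22 lay under 50000 TPM. All 286 neutrophils had 3 or more of 9 neutrophil markers above 0, and 29 of the 40 other cells had 3 or more of 9 monocyte markers. Depth is unknown because TPM keeps none. In its place the number of genes above 0 is given, with a median of 1604.5 in neutrophils and 3027.5 in other cells.

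The neutrophils were ranked within each plate by granule level, the mean log2(TPM + 1) of Ltf, Camp, Ngp, Lcn2, Mmp8, Cd177, Chi3l3 and Hp, whose products fill the granules of maturing neutrophils, and divided into 3 classes of about equal size, granule-low (97 cells), granule-mid (95) and granule-high (94). Median genes above 0 also differed between these classes, at 1363, 1665 and 1980 in the granule-low, granule-mid and granule-high class. Shares at matched numbers of genes are therefore given beside those of Lta4h, Alox5, Ptgs1 and Ptgs2.

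Of the genes tested in this pathway's core, Lta4h and Ptgs2 differed most with granule level, in opposite directions, and their promoters are shown for comparison. The sequences are from RefSeq (GRCm38.p6, the assembly also called mm10) and run from 250 bases before the annotated start to 30 bases after it. Lta4h lies on chromosome 10 from 93453396 to 93484896 on the plus strand, and its window is chr10:93453146-93453425. Ptgs2 lies on chromosome 1 from 150100031 to 150108234 on the plus strand, and its window is chr1:150099781-150100060. Capitals mark matches to the motifs searched on both strands.
Lta4h: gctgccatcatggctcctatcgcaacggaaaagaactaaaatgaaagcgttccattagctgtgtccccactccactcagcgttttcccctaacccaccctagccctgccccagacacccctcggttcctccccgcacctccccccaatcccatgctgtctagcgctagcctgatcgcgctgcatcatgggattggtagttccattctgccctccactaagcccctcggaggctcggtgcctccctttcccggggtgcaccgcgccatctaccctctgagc
Ptgs2: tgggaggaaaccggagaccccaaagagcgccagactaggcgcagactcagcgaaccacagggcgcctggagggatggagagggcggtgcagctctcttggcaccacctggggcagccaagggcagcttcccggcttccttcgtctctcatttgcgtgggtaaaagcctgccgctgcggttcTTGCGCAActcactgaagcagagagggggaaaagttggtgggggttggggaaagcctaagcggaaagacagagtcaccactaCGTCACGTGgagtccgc
The motifs were TTGCGCAA, a palindrome bound by C/EBP factors, CACGTG (the E-box), TGACG (the core of the cAMP response element) and TGANTCA (the AP-1 site). In Ptgs2 the capitals TTGCGCAA begin 69 bases before the start, and CGTCACGTG holds a TGACG match on the minus strand that overlaps a CACGTG match. Of 27025 mouse promoters of the same length, 0.181% hold TTGCGCAA, 6.89% CACGTG, 20.1% TGACG and 7.57% TGANTCA. The Lta4h window holds none of the 4 motifs, and neither do the windows of Alox5, Ltc4s, Ptgs1 and Ptges. For Ptgs1 the window (chr2:36230176-36230455) lies inside the gene span (36216742 to 36258593), not at its outer end. The same holds for Ptges (window chr2:30903268-30903547, span 30889471 to 30931020). No window was available for Alox5ap. A match is a description of letters and no evidence of binding.

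Among neutrophils, the leukotriene branch was detected up to Lta4h, and Ltc4s was not. Alox5ap was above 0 in 97.9% ± 0.745 of neutrophils (SD, n = 2 replicates), Alox5 in 77.4% ± 1.77, Lta4h in 44.5% ± 0.825, Ptgs2 in 35.2% ± 1.26, Ptgs1 in 18% ± 2.81 and Ptges in 7.37% ± 0.38. Ltc4s was listed at 0 in all 286 neutrophils, which allows a share of up to 1.05% with a value above 0, and also in all 40 other cells.

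The levels followed a similar order. Alox5ap had a mean of 2896 TPM in replicate 1 and 3113 TPM in replicate 2. Alox5 had 436 and 406 TPM and Lta4h 396 and 445 TPM, so these neighbours exchanged places between the replicates. Ptgs2 stood below them at 123 and 102 TPM, then Ptgs1 at 31.8 and 41.8 TPM and Ptges at 2.48 and 1.82 TPM. For Ptges, 21 neutrophils had a value above 0, and 8 of these reached 10 TPM, so most of its detections are traces.

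**Figure D1:**
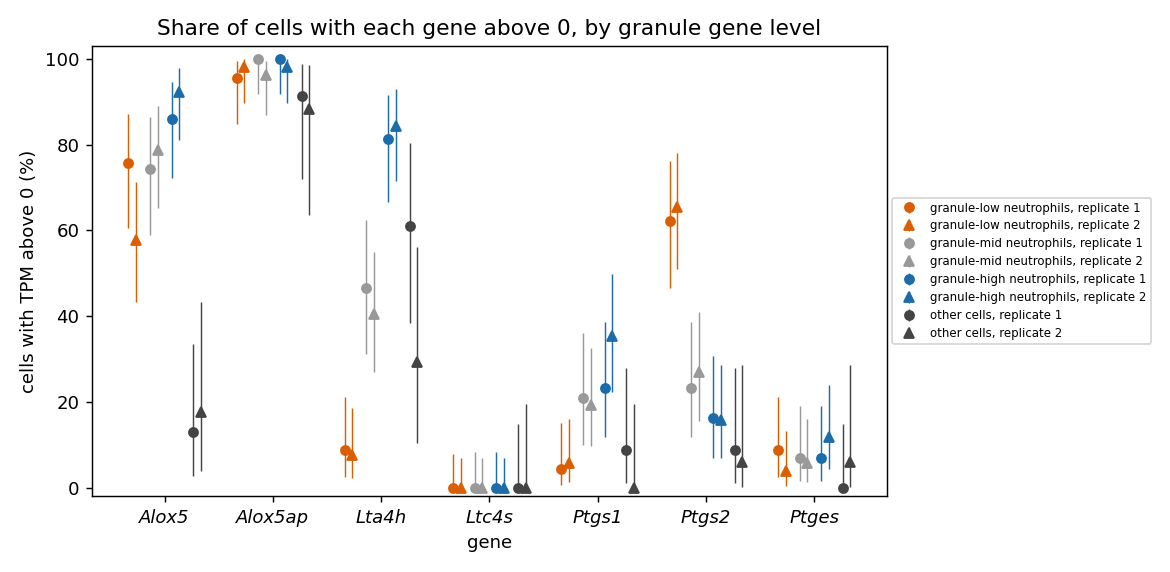
Share of cells with TPM above 0 (y axis, percent) for each gene (x axis), in the 3 granule classes of the neutrophils and in other cells, by replicate (circles 1, triangles 2), with exact 95% binomial intervals that cover counting error only. Lta4h climbs from 8.25% in the granule-low class to 83% in the granule-high class, Ptgs2 runs from 63.9% to 16%, and Ltc4s is at 0 throughout.

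Neutrophils of the granule-high class carried far more Lta4h, far less Ptgs2 and less Alox5ap than those of the granule-low class. Of the 5 genes with enough values to test, Lta4h rose, Ptgs2 and Alox5ap fell, and Alox5 and Ptgs1 did not pass. Over all 3880 genes tested, 14.4% passed (4.2% higher and 10.2% lower in the granule-high class), with a median log2 fold of -0.31. The tests are from limma with Benjamini-Hochberg adjustment over all genes, on log2(mean TPM + 1) of each class in each replicate.

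Lta4h, the enzyme that makes LTB4, had a mean of 748, 747, 963 and 719 TPM in the granule-high class of plates 1 to 4. In the granule-low class of the same plates it was listed at 0 in every cell of plate 1 and had means of 164, 28.6 and 17.4 TPM in plates 2 to 4. Every plate's granule-high class stood above every plate's granule-low class, and the granule-mid class lay between them at 319 to 563 TPM. The log2 fold was 4.17 (SE 0.49, n = 2, limma adjusted p = 0.00316). Fewer than 10% of granule-low cells had Lta4h above 0, so it met the filter for testing only through the granule-high class. Passing is therefore no support for the difference. Lta4h was above 0 in 8 of 97 cells of the granule-low class (8.25%), 41 of 95 of the granule-mid class (43.2%) and 78 of 94 of the granule-high class (83%).

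The same order held for Lta4h among cells with like numbers of genes above 0. At 1200 to 1599 genes, it was above 0 in 5 of 73, 5 of 35 and 7 of 12 cells of the granule-low, granule-mid and granule-high class. At 1600 to 2200 genes these counts were 2 of 8, 15 of 33 and 53 of 64. In cells of 1200 to 2200 genes alone, the Lta4h log2 fold was 3.73 (limma adjusted p = 0.00225). With the granule level first adjusted for the number of genes, it was 1.26 (limma adjusted p = 0.0447), the smallest value under any setting tried. Whether Lta4h met the filter in each class of these fits is not reported here.

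By absolute granule level, Lta4h did not climb evenly. Below a mean log2 granule level of 10, it was above 0 in 2 of 49 neutrophils under 5, 6 of 43 from 5 to 7.5, and 7 of 51 from 7.5 to 10. Only 5 neutrophils lay between 10 and 11, where the scores thin out. Above that gap Lta4h was above 0 in 51 of 67 cells from 11 to 13 and in 60 of 71 cells from 13 up, with means of 893 and 763 TPM. The granule-mid class straddles this gap, so its Lta4h share pools cells from both sides.

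**Figure D2:**
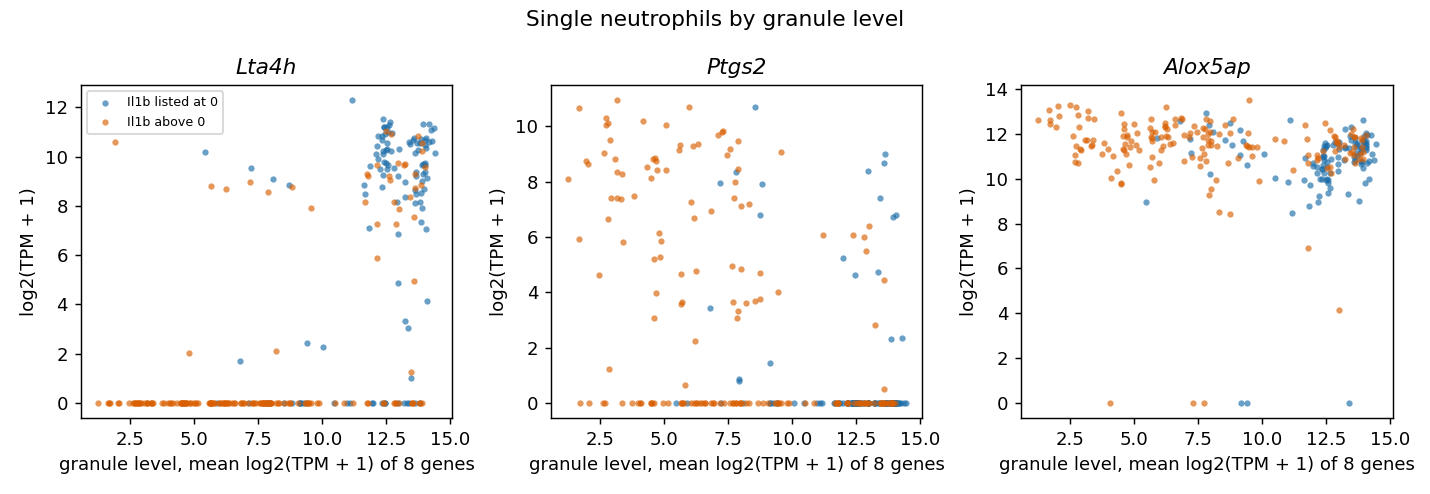
Log2(TPM + 1) of Lta4h, Ptgs2 and Alox5ap (y axes) against granule level (x axis, mean log2(TPM + 1) of 8 genes) in the 286 neutrophils, 1 point per cell, coloured by Il1b. Lta4h values above 0 gather above a granule level of 11, Ptgs2 values gather below 10, and Alox5ap is above 0 across the whole range.

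Alox5ap, which presents arachidonic acid to 5-lipoxygenase, was above 0 in 94 of 97, 93 of 95 and 93 of 94 cells of the granule-low, granule-mid and granule-high class. Its mean was 4061, 3301, 4252 and 3810 TPM in the granule-low class of plates 1 to 4 and 2435, 2495, 2687 and 2656 TPM in the granule-high class. The plate means of these classes did not overlap. The log2 fold was -0.59 (SE 0.10, n = 2, limma adjusted p = 0.0103). Granule genes took 1.4% of TPM in the granule-low class and 18.7% in the granule-high class, and with granule, S100a8, S100a9 and Rn45s transcripts taken out of the total the Alox5ap log2 fold was -0.12 (limma adjusted p = 0.439). That rescaling moved the median of all tested genes from -0.31 to 0.15, while Lta4h (4.69, limma adjusted p = 0.0174) and Ptgs2 (-3.39, limma adjusted p = 0.0319) still passed. For Lta4h, passing is again no support, because the filter was met only through the granule-high class.

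Alox5 gave different pictures by share and by mean level. It was above 0 in 66% of the granule-low, 76.8% of the granule-mid and 89.4% of the granule-high class. This climb was not seen at matched numbers of genes. At 1200 to 1599 genes, Alox5 was above 0 in 64.4%, 74.3% and 58.3% of the granule-low, granule-mid and granule-high class, and at 1600 to 2200 genes in 87.5%, 84.8% and 92.2%. Its plate means were 581, 533, 369 and 436 TPM in the granule-low class and 360, 385, 341 and 324 TPM in the granule-high class, and these overlapped only in that plate 3 of the granule-low class lay under plate 2 of the granule-high class. The log2 fold was -0.43 (SE 0.24, n = 2, limma adjusted p = 0.284). Averaged as log2 values over cells, which weights detection more, the fold turned to 1.25 (limma adjusted p = 0.0419).

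In the prostaglandin branch, COX-2 (Ptgs2) ran against Lta4h. Ptgs2 had a mean of 288, 298, 270 and 208 TPM in the granule-low class of plates 1 to 4 and of 20.6, 5.17, 43.9 and 8.98 TPM in the granule-high class. Each granule-low class was several times above each granule-high class, and no values overlapped. The log2 fold was -3.77 (SE 0.50, n = 2, limma adjusted p = 0.00546). Ptgs2 was above 0 in 62 of 97 cells of the granule-low class (63.9%), 24 of 95 of the granule-mid class (25.3%) and 15 of 94 of the granule-high class (16%). The granule-low class had the fewest genes above 0, so the Ptgs2 share ran against the number of genes. At 1200 to 1599 genes it was above 0 in 50 of 73, 16 of 35 and 3 of 12 cells of the 3 classes, with means of 304, 115 and 9.63 TPM. At 1600 to 2200 genes the counts were 4 of 8, 8 of 33 and 11 of 64, with means of 30.9, 12.8 and 21.3 TPM, so in this range the mean level hardly differed. In cells of 1200 to 2200 genes together, the Ptgs2 log2 fold was -3.62 (limma adjusted p = 0.00387).

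COX-1 (Ptgs1) leaned the other way from COX-2 by share of cells. Its mean level was 13, 58.5 and 39.1 TPM in the granule-low, granule-mid and granule-high class, so it was highest in the granule-mid class. By absolute granule level it was 95.5 TPM from 11 to 13 and 27.9 TPM from 13 up. Ptgs1 was above 0 in 5.15%, 20% and 29.8% of the granule-low, granule-mid and granule-high class. Its plate means were 27.9, 7.61, 2.38 and 13.8 TPM in the granule-low class and 5.32, 71.5, 53.8 and 27.9 TPM in the granule-high class. Plate 1 ran opposite to the others and the classes overlapped. At 1200 to 1599 genes Ptgs1 was above 0 in 4 of 73, 2 of 35 and 2 of 12 cells of the 3 classes, and at 1600 to 2200 genes in 0 of 8, 3 of 33 and 17 of 64. The log2 fold was 1.61 (SE 0.67, n = 2, limma adjusted p = 0.166), and -0.38 with the granule level first adjusted for the number of genes. Ptges was too low to test and was above 0 in 6.19%, 6.32% and 9.57% of the 3 classes, with means of 0.141, 2.01 and 4.36 TPM. All 4 plates differed in the same direction for Lta4h, Ptgs2, Alox5ap and Alox5, as did 38.3% of all genes tested. How many of all genes tested have plate means without overlap was not counted, here or in the comparisons below.

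**Figure D3:**
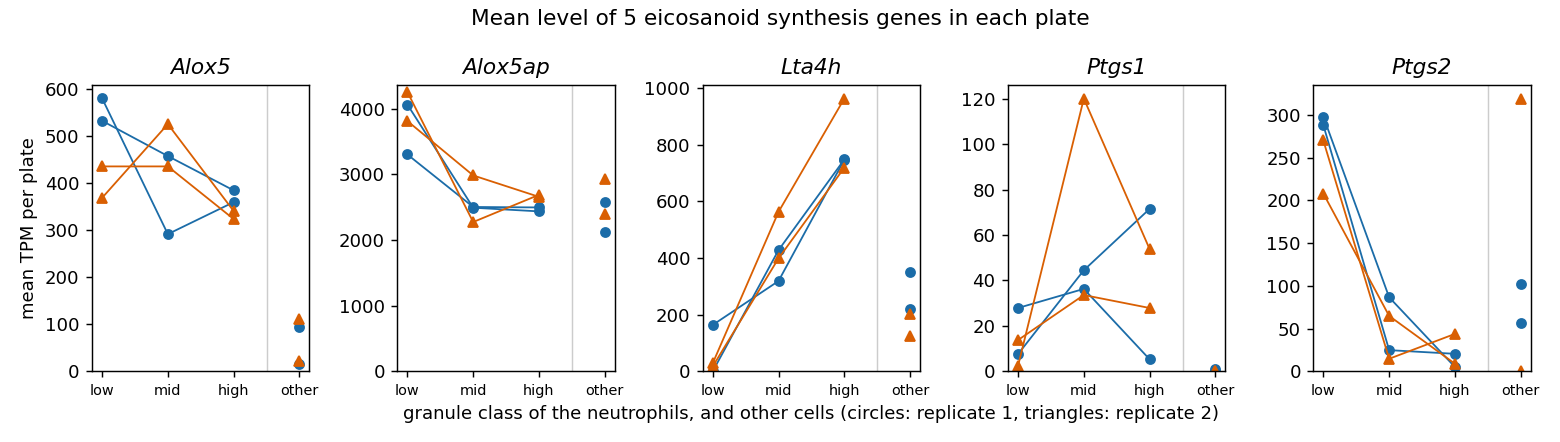
Mean TPM per plate (y axes, linear, each from 0) of Alox5, Alox5ap, Lta4h, Ptgs1 and Ptgs2 in the 3 granule classes of the neutrophils (joined by lines) and in other cells (separate points), with circles for replicate 1 and triangles for replicate 2. Lta4h climbs and Ptgs2 falls in all 4 plates between the granule-low and the granule-high class, and Alox5 and Ptgs1 are far lower in other cells.

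Il1b encodes the cytokine interleukin 1 beta. It was above 0 in 169 neutrophils and listed at 0 in 117. Cells with Il1b carried more Ptgs2, Alox5ap and Alox5 and less Lta4h and Ptgs1. All 5 tested genes passed, but Ptgs1 met the filter only through cells without Il1b. Over all 4052 genes tested, 16.5% passed (12.2% higher and 4.24% lower with Il1b), with a median log2 fold of 0.21. The Il1b split overlaps the granule split, since Il1b was above 0 in 94.8%, 50.5% and 30.9% of the granule-low, granule-mid and granule-high class, and both comparisons use the same cells.

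Lta4h had means of 109, 192, 135 and 98.7 TPM in Il1b-positive neutrophils of plates 1 to 4 and of 773, 719, 941 and 907 TPM where Il1b was listed at 0. The classes did not overlap, and the log2 fold was -2.66 (SE 0.23, n = 2, limma adjusted p = 1.36e-07). Ptgs2 had means of 176, 176, 167 and 141 TPM with Il1b and of 27.6, 69.6, 45.6 and 4.28 TPM without, again with no overlap, and the log2 fold was 2.13 (SE 0.40, n = 2, limma adjusted p = 0.000774). Ptgs2 was above 0 in 81 of 169 Il1b-positive neutrophils (47.9%) and 20 of 117 others (17.1%). For Lta4h and Ptgs2 all 4 plates differed in the same direction, as did 35.8% of all genes tested.

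Alox5ap had means of 3288 and 3639 TPM in replicates 1 and 2 with Il1b and of 2336 and 2344 TPM without. Its log2 fold was 0.56 (SE 0.10, n = 2, limma adjusted p = 0.000367), and 0.22 (limma adjusted p = 0.144) with the abundant granule, S100a8, S100a9 and Rn45s transcripts taken out of the total. Ptgs1 had means of 20 and 13.9 TPM with Il1b and 48.6 and 82.5 TPM without (log2 fold -1.86, SE 0.55, n = 2, limma adjusted p = 0.0256). It was above 0 in 7.16% of neutrophils with Il1b, under the 10% of the filter, so passing is no support for the difference. Without the 16 neutrophils that express cell cycle genes, described further on, the Ptgs1 log2 fold was -1.18 (limma adjusted p = 0.216). Alox5 had means of 551 and 438 TPM with Il1b and 272 and 358 TPM without (log2 fold 0.65, SE 0.22, n = 2). Its limma adjusted p of 0.04995 lay just inside the threshold of 0.05 and was lost in 15 of 16 other fits.

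The Il1b classes also differed in the median number of genes above 0, at 1492 with Il1b and 1940 without. With cells split at the median number of genes of their plate and both strata given equal weight, Lta4h passed (log2 fold -1.65, limma adjusted p = 7.07e-06). The calls of Ptgs2 (1.17, limma adjusted p = 0.13), Alox5ap (0.44, limma adjusted p = 0.0864), Ptgs1 (-1.32, limma adjusted p = 0.303) and Alox5 (0.75, limma adjusted p = 0.11) were lost. At 1600 to 2200 genes, Ptgs2 was above 0 in 14 of 50 cells with Il1b and 9 of 55 without, while its mean was 13.7 TPM with Il1b and 24.5 TPM without. Lta4h was above 0 in 22 of the 50 and 48 of the 55.

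Within a granule class, the Il1b difference did not pass for Lta4h or Ptgs2, and for Ptgs2 its direction differed between mean level and share. In the granule-mid class, Lta4h was above 0 in 12 of 48 cells with Il1b (25%) and 29 of 47 without (61.7%), and the log2 fold was -2.46 (limma adjusted p = 0.344). In the granule-high class, it was above 0 in 19 of 29 with Il1b (65.5%) and 59 of 65 without (90.8%), with a log2 fold of -1.07 (limma adjusted p = 0.374). Lta4h was thus lower with Il1b in both replicates of both classes, by amounts that did not pass. Ptgs2 had log2 folds of -2.96 and 2.45 in replicates 1 and 2 of the granule-mid class, and of -1.05 and -2.02 in the granule-high class. The Ptgs2 share was higher with Il1b in each replicate of both classes, at 27.3% against 19% and 34.6% against 19.2% in the granule-mid class and at 16.7% against 16.1% and 23.5% against 11.8% in the granule-high class. In these fits limma called 0 genes in the granule-mid and 1 in the granule-high class, against 454 and 302 genes at an unadjusted p under 0.05. Their power was not measured. Only 5 cells of the granule-low class lacked Il1b, so no comparison was made there.

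Among Il1b-positive cells alone, the granule difference kept its direction for both genes. The log2 fold of the granule-high over the granule-low class was 4.21 for Lta4h (limma adjusted p = 0.0185) and -5.04 for Ptgs2 (limma adjusted p = 0.0111). Lta4h was above 0 in 5 of the 92 granule-low cells with Il1b, so it met the filter only through the granule-high class. Passing this test is no support for its difference.

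**Figure D4:**
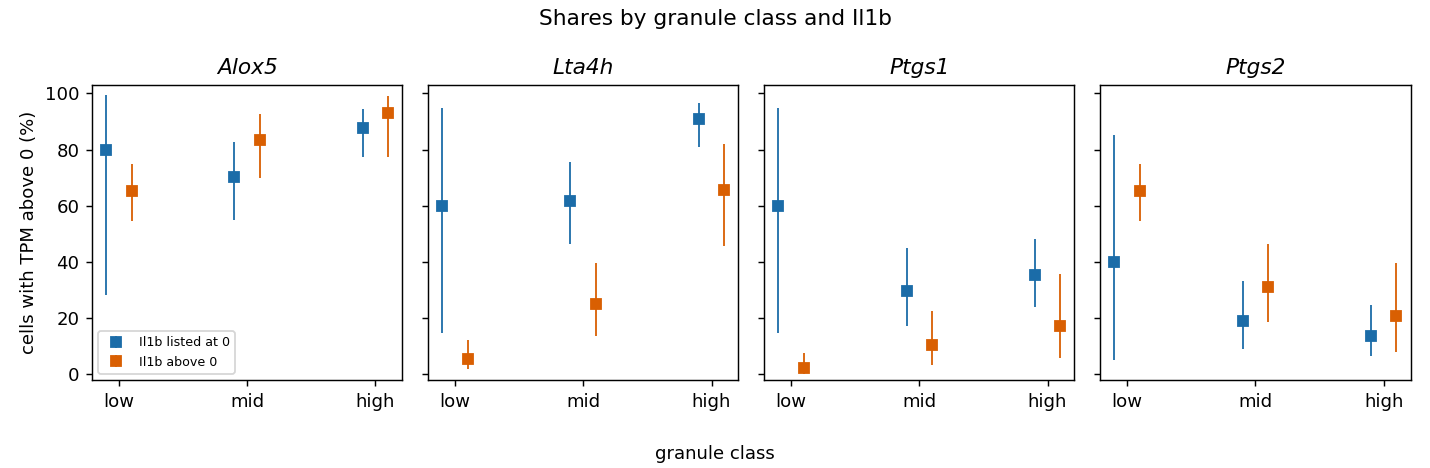
Share of neutrophils with TPM above 0 (y axis, percent) for Alox5, Lta4h, Ptgs1 and Ptgs2 in each granule class (x axis), split by Il1b, with exact 95% binomial intervals. Lta4h is lower with Il1b in the granule-mid class (25% against 61.7%) and the granule-high class (65.5% against 90.8%), and the granule-low class without Il1b holds only 5 cells.

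The genes of the LTB4 route were found together most often in the granule-high class. Alox5, Alox5ap and Lta4h were all above 0 in 109 of 286 neutrophils (38.1%), in 4 of 97 cells of the granule-low class (4.12%), 35 of 95 of the granule-mid class (36.8%) and 70 of 94 of the granule-high class (74.5%). The products of the 3 genes' shares give 5.12, 30.8 and 69 cells in these classes, close to the cells counted. Lta4h and Ptgs2 were above 0 together in 17 neutrophils, where the product of their shares gives 44.8. Within the classes these counts were 4, 3 and 10, beside products of 5.11, 10.4 and 12.4. Ptgs1 and Ptgs2, the cyclooxygenase pair, met in 7 neutrophils (product 18.4). By class they met in 4, 0 and 3 cells, beside products of 3.2, 4.8 and 4.47, so the shortfall over all neutrophils is not present in the granule-low class. Ptgs2 and Ptges met in 5 neutrophils, all of the granule-low class, where Ptges was at trace level (log2(TPM + 1) of 0.911 to 2.625). Every neutrophil with at least 10 TPM of Ptges had Ptgs2 listed at 0. In contrast, Lta4h and Ptgs1 met in 44 neutrophils (product 23.1). By class they met in 2, 15 and 27 cells, beside products of 0.412, 8.2 and 23.2, so the excess was small in the granule-high class. The cells pooled here differ in the number of genes above 0, and no test was made of these counts.

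The 16 neutrophils with at least 5 of 10 cell cycle genes above 0, 8 in each replicate and 13 of them in the granule-mid class, had a median of 3336.5 genes above 0. Lta4h was above 0 in all 16, with a mean of 1429 TPM, and Ptgs1 in 13, with a mean of 228 TPM. Ptgs2 was listed at 0 in all 16. Alox5 (13 of 16, mean 238 TPM) and Alox5ap (16 of 16, mean 1085 TPM) were present at mean levels below those of all neutrophils.

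Ptgs2 is known as an immediate early gene, one switched on within minutes of a stimulus, and such genes are also known to respond to tissue digestion. Of 12 other immediate early genes, 11 fell in the granule-high class (median log2 fold -2.28, beside -0.31 over all genes tested), where 10.2% of all genes tested fell. With Il1b, 11 rose (median 1.76, beside 0.21), where 12.2% of all genes tested rose. Jun was the exception in both. Egr1, among the 11 in both, had a mean of 370 and 816 TPM in the granule-low class of replicates 1 and 2 and of 2.36 and 10.3 TPM in the granule-high class (log2 fold -6.48, SE 0.49, n = 2, limma adjusted p = 0.000482). It was above 0 in 6.38% of the granule-high class and 7.69% of cells without Il1b. Egr1 thus met the filter only through the class where it is high, and passing is no support for its differences. Whether this held for the other immediate early genes is not reported here. Within the granule-low class, the mean log2(TPM + 1) of the 12 genes was 7.35 in the 62 cells with Ptgs2 and 6.92 in the 35 without. Whether handling of the tissue had a part in the Ptgs2 difference was not tested.

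Compared with other cells, neutrophils carried more Alox5 and Ptgs1, while Alox5ap, Lta4h and Ptgs2 did not pass. Over all 4584 genes tested, 25.2% passed (8.9% higher and 16.3% lower in neutrophils), with a median log2 fold of -0.23. Alox5 had means of 413, 460, 413 and 399 TPM in neutrophils of plates 1 to 4 and of 94.6, 15.8, 111 and 21.9 TPM in other cells, without overlap. The log2 fold was 2.87 (SE 0.41, n = 2, limma adjusted p = 9.18e-06). All 4 plates differed in the same direction for Alox5, as did 42.5% of all genes tested. Ptgs1 had means of 31.8 and 41.8 TPM in neutrophils of replicates 1 and 2. In other cells its mean was 0.694 TPM in replicate 1, and it was listed at 0 in replicate 2. Ptgs1 passed, but it met the filter only through neutrophils, so passing is no support for the difference. Its fitted size is not given because it depends on the pseudocount.

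Alox5ap was above 0 in 36 of 40 other cells, with means of 2319 and 2672 TPM in replicates 1 and 2 beside 2896 and 3113 TPM in neutrophils (log2 fold 0.27, SE 0.16, n = 2, limma adjusted p = 0.213). Lta4h was above 0 in 19 of 40, with means of 295 and 165 TPM beside 396 and 445 TPM (log2 fold 0.92, SE 0.35, n = 2, limma adjusted p = 0.056). With granule, S100a8, S100a9 and Rn45s transcripts taken out of the total, both passed, Alox5ap at 0.66 (limma adjusted p = 0.0134) and Lta4h at 1.61 (limma adjusted p = 0.0152). Ptgs2 had means of 82.3 and 169 TPM in other cells beside 123 and 102 TPM (log2 fold -0.07, SE 0.47, n = 2, limma adjusted p = 0.932).

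Few of the other cells held Alox5 or Ptgs2. The 6 with Alox5 above 0 had 890, 832, 205, 197, 115 and 0.55 TPM, and the 3 with Ptgs2 had 2872, 1322 and 570 TPM. The 3 Ptgs2 cells had 4 to 7 of the 9 neutrophil markers above 0 and at most 2 of the 9 monocyte markers. The medians over all 40 other cells were 4 neutrophil markers and 7.5 monocyte markers. In the 29 other cells with 3 or more monocyte markers, Alox5ap was above 0 in 29 (mean 2495 TPM) and Lta4h in 15 (mean 172 TPM). Alox5 was above 0 in 1 of these cells, at 0.55 TPM, and Ptgs2 was listed at 0 in all 29. Against these 29 cells alone, Lta4h was higher in neutrophils (log2 fold 1.29, limma adjusted p = 0.0339). Ptgs2 met the filter there only through neutrophils, so passing that test is no support for a difference. The cell with 115 TPM of Alox5 had 7 of 8 mast cell or basophil markers above 0 and Ltc4s listed at 0.

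Of 45 other eicosanoid genes, all had a row in the table (Ptgdr2 under its older symbol Gpr44), and 14 were listed at 0 in every neutrophil. Between the granule classes, 14 of the 45 could be tested. In the granule-high class 6 rose (Anxa1, Mgst1, Mgst2, Ltb4r1, Ptger4 and Ptgir), 3 fell (Pla2g7, Ggt5 and Cyp4f18) and 5 did not pass, where 4.2% of all genes tested rose and 10.2% fell. Their median log2 fold was 0.40, beside -0.31 over all genes tested. Ptger4 and Ptgir met the filter only through the granule-high class, and Pla2g7 only through the granule-low class. With Il1b, 17 could be tested, of which 3 rose (Pla2g7, Ggt5 and Cyp4f18), 5 fell (Anxa1, Mgst2, Ptgr1, Ltb4r1 and Ptger4) and 9 did not pass, where 12.2% of all genes tested rose and 4.24% fell. Their median was -0.10, beside 0.21 over all genes tested. Ptgr1 and Ptger4 met the filter only through cells without Il1b.

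Upstream of the pathway, Anxa1 (annexin A1, known to restrain release of arachidonic acid) had means of 12097 and 13039 TPM in the granule-high class of replicates 1 and 2 and of 2617 and 2785 TPM in the granule-low class (log2 fold 2.22, SE 0.07, limma adjusted p = 2.79e-05). Pla2g7, which inactivates platelet activating factor, had 8.81 and 8.09 TPM in the granule-high class and 1201 and 1402 TPM in the granule-low class (log2 fold -7.10, SE 0.39, limma adjusted p = 0.000173). Because Pla2g7 met the filter only through the granule-low class, passing is no support for its difference. Pla2g4a, the cytosolic phospholipase A2 that frees arachidonic acid, was above 0 in 20 neutrophils (mean 20.3 TPM) and was too low to test. It is named here after its values were seen. Cotl1, a protein that binds 5-lipoxygenase, had 267 and 313 TPM in the granule-high class and 349 and 297 TPM in the granule-low class (limma adjusted p = 0.753).

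Genes that act on LTB4 after its synthesis split in direction. Ltb4r1, its high-affinity receptor, had 1002 and 980 TPM in the granule-high class and 203 and 208 TPM in the granule-low class (log2 fold 2.26, SE 0.22, limma adjusted p = 0.00169), so it rose as Lta4h did. Cyp4f18, which inactivates LTB4 in mouse neutrophils, had 288 and 331 TPM in the granule-high class and 1765 and 1922 TPM in the granule-low class (log2 fold -2.57, SE 0.18, limma adjusted p = 0.00039), so it fell as Ptgs2 did. Ptgr1, another enzyme of LTB4 breakdown, was tested for Il1b, where it had 11.8 TPM in replicate 1 and was listed at 0 in replicate 2 with Il1b, beside 34.4 and 49 TPM without. It met the filter only through cells without Il1b, so passing the test is no support for the difference.

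Of the enzymes around cysteinyl leukotrienes, Mgst2, a relative of Ltc4s that can also make LTC4, was above 0 in 40.6% of neutrophils. It had 209 and 208 TPM in the granule-high class and 46.2 and 84.4 TPM in the granule-low class (log2 fold 1.72, SE 0.41, limma adjusted p = 0.0388). Ggt5, which turns LTC4 into LTD4, had 17 and 13.1 TPM in the granule-high class and 65.9 and 135 TPM in the granule-low class (log2 fold -2.58, SE 0.60, limma adjusted p = 0.0346). Mgst1, a glutathione transferase of membranes, had 1625 and 1715 TPM in the granule-high class and 1121 and 869 TPM in the granule-low class (log2 fold 0.76, SE 0.16, limma adjusted p = 0.0279). The granule calls of Mgst2, Ggt5 and Mgst1 were lost in 5, 6 and 3 of 16 other fits.

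Among prostanoid genes, the prostaglandin E2 receptor Ptger4 had 49.2 and 54.3 TPM in the granule-high class and was listed at 0 in every cell of the granule-low class. The prostacyclin receptor Ptgir had 43.1 and 47.6 TPM in the granule-high class and 0.986 TPM in the granule-low class of replicate 1, and was listed at 0 in that of replicate 2. Ptger4 and Ptgir met the filter only through the granule-high class, so passing the test is no support for their difference. Ptges3, a cochaperone also described as a cytosolic prostaglandin E synthase, had 59.7 and 16.3 TPM in the granule-high class and 96.8 and 55 TPM in the granule-low class (limma adjusted p = 0.194). Between neutrophils and other cells, 5 of 17 tested genes were higher in neutrophils (Anxa1, Mgst1, Mgst2, Cyp4f18 and Ltb4r1), Ptges3 was lower, and 11 did not pass, where 8.9% of all genes tested were higher and 16.3% lower. Their median log2 fold was 0.71, beside -0.23 over all genes tested.

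**Figure D5:**
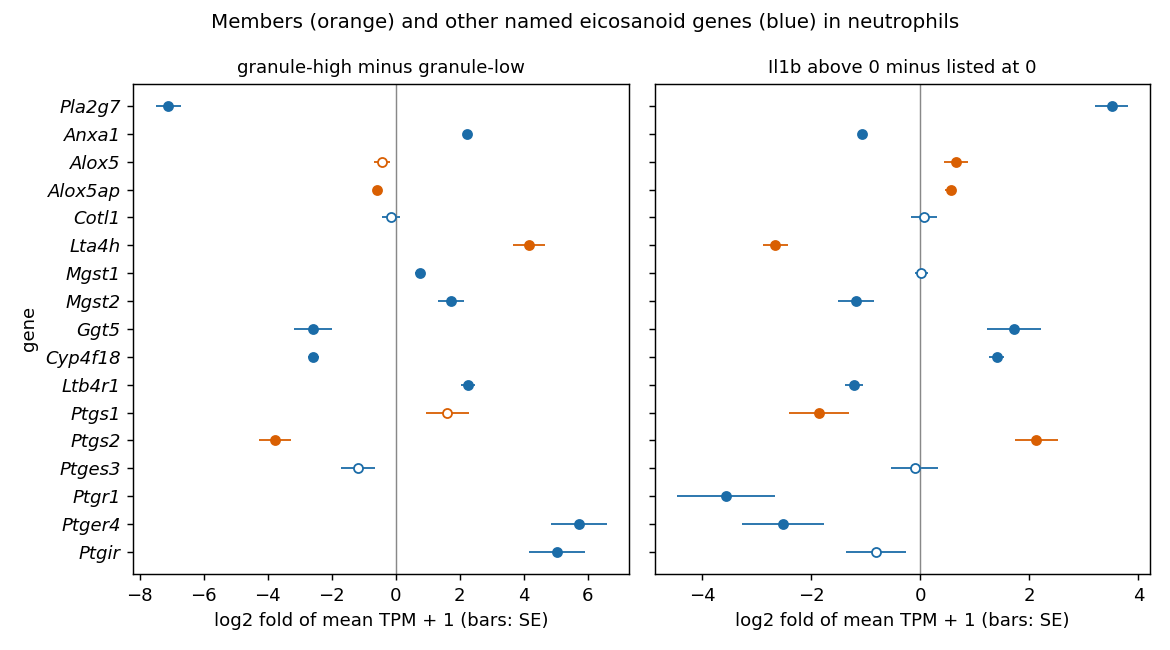
Log2 fold of mean TPM + 1 with its SE (x axes) for the tested members (orange) and the other named eicosanoid genes (blue), between granule classes and by Il1b. Filled points passed the limma test at an adjusted p of 0.05. Folds of genes listed at 0 in a class (Ptger4, Ptgir and Ptgr1) depend on the pseudocount. Lta4h, Pla2g7, Ptger4 and Ptgir between granule classes met the filter only through the class where they are high. By Il1b this held for Ptgs1, Ptgr1 and Ptger4. For these points passing is no support for the difference.

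Across neutrophils, the genes whose levels ran most like each member were ranked over 1821 genes by Spearman's rho, averaged over the 4 plates after removing the trend with the number of genes above 0. For Lta4h they were Chi3l3 (0.54), Ltf (0.50) and Camp (0.42), all of them among the 8 genes of the granule level. Alox5ap ran most like Taldo1 (0.41), Anxa2 (0.39) and Sdcbp (0.39). Ptgs2 ran most like LOC100038947 (0.39), Sirpb1b (0.32) and Tpm4 (0.28). Alox5 ran most like Zyx, Lilra6 and Plek (0.28 each), and its rho with Alox5ap, its partner protein, was 0.13. For 3 of these members the opposite ends were named after their values were seen. They were Ccl6 (-0.46), Il1b (-0.45) and Srgn (-0.42) for Lta4h, Ltf (-0.29), Camp (-0.27) and Pla2g4b (-0.27) for Alox5ap, and Ifitm6 (-0.34), Itgb2l (-0.33) and Cd177 (-0.32) for Ptgs2. These values are descriptions of sparse single-cell data in which cells share plates and replicates.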

How the data were processed

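The authors deposited TPM values for 23420 genes in each of 326 cells. RSEM and the mouse build mm10 were used, per the submitters' processing notes, while the aligner, with its annotation and versions, is not given in the sources used here. Each cell sums to 1000000 TPM, so depth is unknown, and when abundant transcripts take more of the total every other value drops. A 0 can be a failed estimate (9283 genes, 39.6%, are at 0 in every cell), hence "listed at 0". Optn was listed at 0 in all 326 cells. At least 500 genes above 0 were required, which removed 0 cells, 0 columns were identical, and no doublet caller was run.

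TPM was averaged over the cells of each class in each of 2 replicates, and log2(mean TPM + 1) was tested in limma (version 3.58.1 under R 4.3.3, with trended and robust variance), with the replicate as a block, because both classes come from the same replicate and plates. Tested genes had a mean of 5 TPM or more and were above 0 in at least 10% of the cells compared, without those that define the classes. The filter pooled both classes, so a gene that fails it in 1 class entered only through the other, where it is high. Among named genes that passed, this held between granule classes for Lta4h, Pla2g7, Ptger4, Ptgir and Egr1. By Il1b it held for Ptgs1, Ptgr1, Ptger4 and Egr1, and against other cells for Ptgs1. Passing is no independent support for their direction. Adjusted p-values (Benjamini-Hochberg, two-sided, threshold 0.05) cover all genes tested. With 1 residual degree of freedom per gene, each test rests largely on the variance that limma pools over genes. Cells were not counted as replicates. Scripts were tested on simulated data. Fold changes on this scale understate those of low genes. Binomial intervals (exact Clopper-Pearson, 95%) and the limit for a count of 0 (3 cells) cover counting error only.

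The members and the gene lists were chosen with earlier results of these data known. Named genes are the 7 members, every other listed eicosanoid gene called in a comparison, the 8 highest of these in neutrophils, and the 3 genes most like each member above 0 in at least 30% of neutrophils. Of the marker lists, Ly6g and Trac were not matched. Lists for border macrophages, eosinophils, platelets, erythroid cells, oligodendrocytes, astrocytes, neurons and endothelial or mural cells had 0 cells with 3 or more markers above 0. The dendritic cell list had 1 such other cell, the mast cell or basophil list 1, the T or NK cell list 3 and the B cell list 2, with 2 more among neutrophils. The monocyte list had 20 such neutrophils, and the neutrophil list 33 such other cells at a median summed level of 287 TPM against 100720 TPM in neutrophils.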

Additional observations from a re-analysis of the deposited data

How the results depend on the processing

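Over the 15 tests of the 5 testable members, 224 other fits were made, of which 162 kept direction and side of the threshold, 46 lost the call, 7 gained it and 9 turned direction. The 30 values without either replicate are single differences with no test. They kept the main direction for every member test except Ptgs2 in neutrophils against other cells, which ranged from -0.72 to 0.57. For Lta4h they ranged from 3.21 to 5.13 between granule classes and from -3.00 to -2.31 by Il1b, and for Ptgs2 from -4.39 to -3.15 and from 1.86 to 2.41. The shares without either replicate ranged from 76.1% to 78.6% for Alox5, 97.4% to 98.5% for Alox5ap, 43.9% to 45% for Lta4h, 16% to 20% for Ptgs1, 34.4% to 36.1% for Ptgs2 and 7.1% to 7.63% for Ptges, and Ltc4s stayed at 0.

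Counts of genes called moved as follows. Without the filter on low values, the granule comparison called 23 genes in place of 557, the Il1b comparison 4 in place of 668, and neutrophils against other cells 0 in place of 1155 by limma (2313 at an unadjusted p under 0.05), so every member call was lost. Averages of log2 values called 1550 (1245 higher, 305 lower), 1503 (341 higher, 1162 lower) and 2093 genes (402 higher, 1691 lower), in which the split by direction turned for the first and the second. Rescaling without the abundant transcripts gave 278 calls between granule classes (137 higher, 141 lower, against 163 and 394), 533 by Il1b (262 higher, 271 lower, against 496 and 172) and 905 for neutrophils (496 higher, 409 lower, against 408 and 747). The granule comparison called 938 genes with 2 classes, 242 with the score adjusted for genes detected and 209 in Il1b-positive cells. The Il1b comparison called 312 genes with 2 strata of genes detected at equal weight, 1 with granule classes at equal weight, 0 in the granule-mid class and 1 in the granule-high class. Without the replicate block the counts were 613, 544 and 865, and of the member calls only that of Alox5 by Il1b was lost (limma adjusted p = 0.0816). The alternatives within a granule class, within Il1b-positive cells, at 1200 to 2200 genes and without Rn45s-rich cells were chosen after seeing the data.

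Shares moved by more than the spread between replicates as follows. Counting from 1 TPM gave 33.9% for Ptgs2 and 5.31% for Ptges. Counting from 10 TPM gave 74.7% for Alox5, 41.4% for Lta4h, 30.2% for Ptgs2 and 2.88% for Ptges. A neutrophil threshold of 50000 TPM gave 80.5%, 45.9%, 33.3% and 7.97% for the same genes. At least 1000 genes per cell gave 79.4% for Alox5, 45.5% for Lta4h and 6.86% for Ptges. Without cycling cells the share was 41.1% for Lta4h, 14.2% for Ptgs1 and 37.3% for Ptgs2.

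These log2 folds turned direction, and the cause was not tested. Between granule classes, averages of log2 values gave 1.25 for Alox5, 1.14 for Cotl1 and 0.19 for Ptges3, rescaling gave 0.31 for Cotl1, 2 classes gave 0.11 for Ptges3, and the score adjusted for genes detected gave -0.38 for Ptgs1. By Il1b, averages of log2 values gave -0.73 for Cotl1 and -1.92 for Mgst1, and rescaling gave -0.25 and -0.26. Granule classes at equal weight gave -0.01 for Cotl1, 0.01 for Ptges3 and 0.04 for Ptgir, and 2 strata of genes detected gave -0.04 for Cotl1. Leaving out Rn45s-rich cells gave 0.36 for Ptges3, and leaving out cycling cells gave 0.11 for Ptges3 and -0.10 for Mgst1. The granule-mid class gave -0.26 for Ptgs2 and 1.58 for Ptgir, and the granule-high class gave -1.54 for Ptgs2, -0.13 for Cotl1, 0.27 for Mgst2 and 0.15 for Ptges3. For neutrophils against other cells, Ptgs2 (-0.07) came to 1.57 with averages of log2 values (limma adjusted p = 0.00733), 1.60 with averages per plate, 0.14 rescaled, 6.82 against cells with monocyte markers and 0.01 without cycling cells. Ptgr1 came to -0.23 with averages of log2 values and Pla2g7 to -0.13 at the threshold of 50000 TPM.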
